A study of Mus musculus with 3 samples.

Results

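The HOX cluster genes are the subject: every gene whose platform symbol was Hoxa, Hoxb, Hoxc or Hoxd followed by a number. This rule, which used no measured value, gave 37 genes among 19938 named genes, with 10 in the HOXA cluster and 9 each in HOXB, HOXC and HOXD. Each of the 37 was read by 1 probe set. A further probe set was annotated to Hoxb8 and Hoxb7 together and was kept apart, and Hoxb8 on its own was not analysed here. RNA came from cultured, FSP1-positive fibroblasts of the mouse forestomach, hybridised to Affymetrix Mouse Gene 1.0 ST arrays with 1 array per line. The Tgfbr2/Smad4 cKO line carried conditional knockouts of Tgfbr2, the type II TGF-beta receptor, and of Smad4, the SMAD shared by TGF-beta and BMP signalling, and came from normal forestomach. The Tgfbr2 cKO line carried the receptor knockout alone and was derived from forestomach squamous cell carcinoma tissue. The wild-type line came from normal forestomach. All 3 lines were grown in medium with 10% serum and used between passages 4 and 6, from mice described as mixed C57BL6 and BALBc, of either sex and without a stated age. The sources used here do not give the driver of the conditional deletion or how many animals a line came from.

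HOX genes encode homeodomain transcription factors that give cells their position along the head-to-tail axis. They lie in 4 clusters, each on its own chromosome, and genes at the same place in different clusters are paralogues that share a number from 1 to 13. Low numbers, at the 3′ end of a cluster, are switched on first and furthest forward in the embryo, and high numbers, at the 5′ end, later and further back. Retinoic acid activates the 3′ genes, Polycomb complexes keep unused genes silent and Trithorax complexes keep used ones active. Fibroblasts keep much of the HOX pattern of their place of origin in culture.

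With 1 array per line, no difference has a replicate check and no test or p-value is given. So few arrays also limit how precise any value can be. The values were read as log2 signals from their range, and their medians over 35556 probe sets differed by at most 0.00413 between arrays. Depending on the pair of arrays, from 44.1% to 56.1% of probe sets carried identical values, so a difference of 0 in the deposited table is common and does not measure how alike the cells were. Tgfbr2 had signals of 10.29, 10.25 and 10.25 in the arrays labelled Tgfbr2/Smad4 cKO, Tgfbr2 cKO and wild type, and Smad4 had 11.04, 11.06 and 11.06. Both are read across the whole transcript and so check nothing about deleted exons. Xist, the RNA of the inactive X chromosome, had signals of 9.44, 5.35 and 5.33 in the same order, and Y-linked Eif2s3y 5.01, 10.00 and 10.12, so the Tgfbr2/Smad4 cKO array also differed from the others in its sex-linked genes. The FSP1 gene S100a4 had signals of 12.71, 13.16 and 13.18. All 12 fibroblast markers reached 6.63, the median signal of the table, in at least 1 array, as did 8 of 8 smooth muscle, 5 of 6 mesothelial, 3 of 9 epithelial, 3 of 6 leukocyte and 0 of 6 endothelial markers. Epcam, Cdh1, Ptprc and Pecam1 were below it in every array, while the epithelial and mesothelial keratin gene Krt19 had 6.93, 9.25 and 8.82 and the macrophage gene Lyz2 7.75, 9.52 and 8.70 in the Tgfbr2/Smad4 cKO, Tgfbr2 cKO and wild-type arrays. In bulk RNA, fewer cells of a type and less RNA per cell cannot be told apart.

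The HOX signal in all 3 lines lay mostly in the 3′ and middle parts of HOXA, HOXB and HOXC. Since probe sets differ in brightness, signals of different genes were not ranked against each other. Each was set against the median of all values, 6.63, which is a landmark and not a detection call. A place above or below that landmark also depends on brightness, and genes near it, such as Hoxd9 at 6.55, could fall on either side. By that landmark 20 of 37 HOX genes reached the median in all 3 arrays, 16 were below it in all 3, and 1, Hoxa10, was above it in the Tgfbr2/Smad4 cKO array only. Over all named genes 57.7% were at or above the median in all 3 arrays. By position, 11 of 14 genes of paralogue groups 1 to 5, 6 of 7 of groups 6 to 8, and 3 of 16 of groups 9 to 13 were at or above it throughout.

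**Figure D1:**
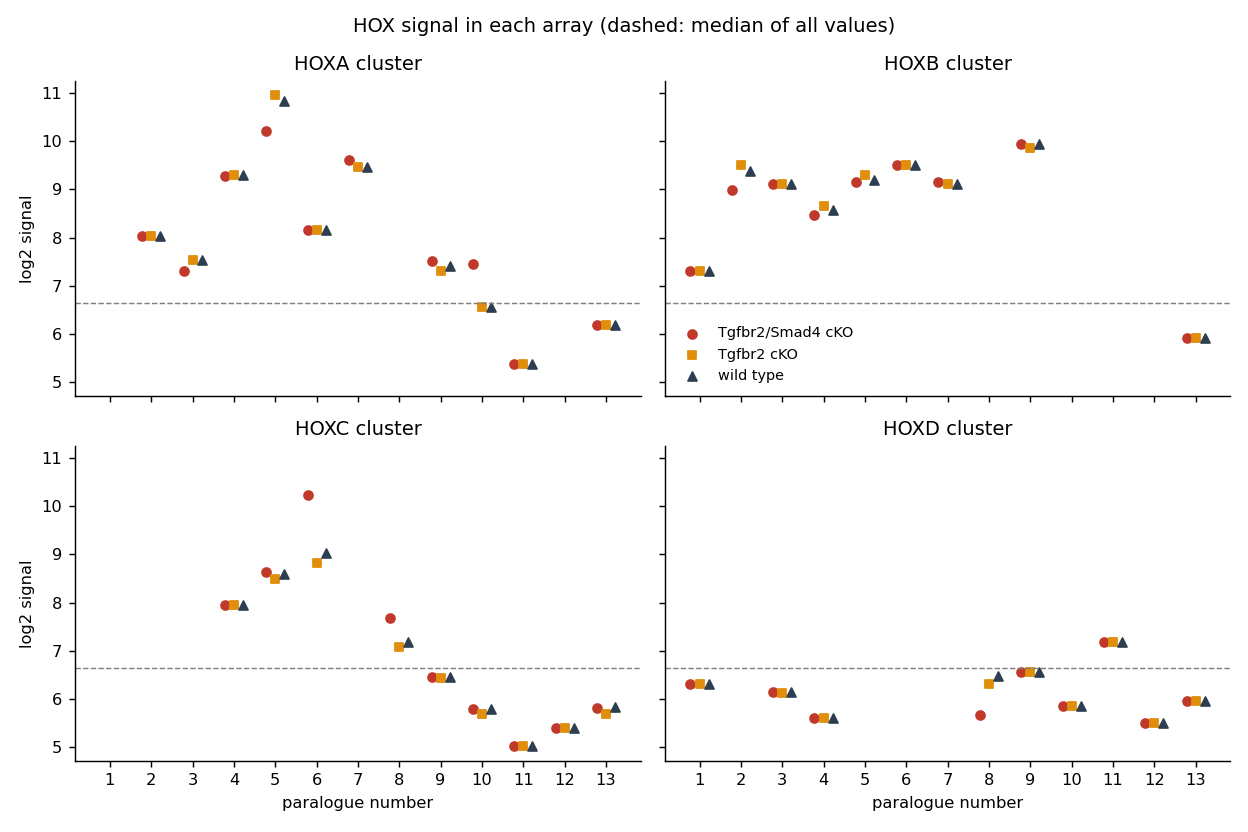
Log2 signal of each HOX gene (vertical axis) by paralogue number (horizontal axis), with a panel for each cluster and a point for each array. The dashed line is the median of all values, 6.63. Most HOXA and HOXB points and those of HOXC up to number 8 lie above the line, most HOXD points lie below it, and the 3 arrays part most at Hoxc6, Hoxa10, Hoxd8 and Hoxa5.

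In the HOXA cluster, on chromosome 6, the genes Hoxa2 to Hoxa9 were above the median in every array. Their signals ran from 7.30 to 10.95. Hoxa2, a hindbrain and middle ear gene, had 8.02, 8.03 and 8.02 in the Tgfbr2/Smad4 cKO, Tgfbr2 cKO and wild-type arrays. Hoxa6 had a signal of 8.15 in each array. The 5′ genes Hoxa11, which acts in forearm and kidney development, and Hoxa13, a hindgut and digit gene, had signals of 5.38 and 6.18 in each array and lay below the median.

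In the HOXB cluster, on chromosome 11, 8 of 9 genes were above the median in every array. Hoxb1, a hindbrain segment gene, had 7.30 in each array, Hoxb3 9.11 and Hoxb6 9.50. Hoxb9 had 9.94, 9.86 and 9.94 in the Tgfbr2/Smad4 cKO, Tgfbr2 cKO and wild-type arrays. The gene at the 5′ end, Hoxb13, which is used in the tail and the prostate, had 5.92 in each array and was the HOXB member below the median.

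The HOXC cluster, on chromosome 15, split at paralogue 9. Hoxc4, Hoxc5, Hoxc6 and Hoxc8 were above the median in every array, with signals from 7.07 to 10.23. Hoxc9 to Hoxc13 were below it in every array, with signals from 5.01 for Hoxc11 to 6.46 for Hoxc9. Hoxc10 is a lumbar-level gene and Hoxc13 acts in hair and nail. In the HOXD cluster, on chromosome 2, Hoxd11 was the 1 gene of 9 above the median, at 7.18 in each array. The other HOXD genes, among them the digit gene Hoxd13 at 5.96, had signals from 5.49 to 6.55 in the wild-type array. Hoxd1, Hoxd4, Hoxd9, Hoxd10 and Hoxd12 were equal in all arrays, at 6.30, 5.60, 6.55, 5.85 and 5.49, and Hoxd3 differed by at most 0.02.

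Between the Tgfbr2/Smad4 cKO and wild-type lines, a few HOX genes differed by more than 1.5-fold. Both lines came from normal forestomach, but they also differed in Xist by 4.11, in Eif2s3y by -5.10 and in Mki67 by -1.94. The 8 smooth muscle markers differed by a median of -1.09. The parts of these in the HOX differences cannot be told apart from that of genotype. Hoxc6 was the member at least 2-fold higher in the Tgfbr2/Smad4 cKO line, and Hoxa10 came near to that size. Hoxd8 and Hoxa5 were lower by more than 1.5-fold. Of 37 members, 7 were higher, 8 lower and 22 exactly equal, which is 18.9%, 21.6% and 59.5%, against 24.8%, 22.8% and 52.3% of all named genes.

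Hoxc6, a gene of the lower neck and chest levels of the embryo, had signals of 10.23 in the Tgfbr2/Smad4 cKO array, 8.81 in the Tgfbr2 cKO array and 9.03 in the wild-type array. The Tgfbr2/Smad4 cKO array stood high and the other arrays lay close together. The difference from wild type was 1.20 on the log2 scale, or 2.30-fold. Among 11808 genes whose highest signal reached the median, the level filter used for all counts by size, this placed Hoxc6 at rank 92 from the top, and 2.27% of genes differed by as much in either direction.

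Its neighbour Hoxc8, which patterns the chest skeleton and the motor neurons of the forelimb, had signals of 7.67 in the Tgfbr2/Smad4 cKO array, 7.07 in the Tgfbr2 cKO array and 7.18 in the wild-type array. It was 0.50 higher than wild type on the log2 scale, or 1.41-fold. The order of the arrays was the same as for Hoxc6. On the 3′ side of Hoxc6, Hoxc5 had 8.64, 8.48 and 8.59 in the same order of arrays, and Hoxc4 had 7.95 in each. On the 5′ side, Hoxc9, Hoxc10, Hoxc11 and Hoxc12 each had the same signal in the Tgfbr2/Smad4 cKO and wild-type arrays. Within HOXC the difference was largest at Hoxc6 and next largest at Hoxc8, with near or exact equality on both sides of that pair. Hoxc9 to Hoxc13 were below the median in every array, and 14 of the 16 such HOX members were equal between these arrays. Equal values were common over all named genes, at 52.3%, and less so over those that passed the level filter, at 36.7%. Equality on the 5′ side therefore does not show where the difference ended.

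Hoxa10, a lumbar-level gene that also acts in uterus development, had signals of 7.46 in the Tgfbr2/Smad4 cKO array, 6.55 in the Tgfbr2 cKO array and 6.55 in the wild-type array. It was 0.91 higher than wild type on the log2 scale, or 1.87-fold. Hoxa10 passed the level filter through the Tgfbr2/Smad4 cKO array alone, so its place among the members that passed follows from its being high there. With 32 added to each linear signal, which damps differences between dim values, its difference was 0.72.

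Hoxa5, needed in mice for normal lung and stomach development, had signals of 10.20 in the Tgfbr2/Smad4 cKO array, 10.95 in the Tgfbr2 cKO array and 10.83 in the wild-type array. Here the Tgfbr2/Smad4 cKO array stood low. The difference from wild type was -0.62 on the log2 scale, a 1.54-fold lower signal. The direction was opposite to that of Hoxa10, 5′ of it in the same cluster.

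The stretches before the starts of Hoxa5 and Hoxa10 are shown because these genes of the HOXA cluster differed in opposite directions in the line labelled as a knockout of Tgfbr2 and Smad4. Each is the 250 bases before a start site in RefSeq's GRCm38.p6 annotation, on the minus strand and written 5′ to 3′. Capitals mark the short SMAD-binding motif CAGAC, read on both strands, and the joint HOX and PBX motif TGATNNAT. The first is at chr6:52204588-52204837 and the others, for the 2 starts listed for Hoxa10, are at chr6:52240855-52241104 and chr6:52234940-52235189.
Hoxa5: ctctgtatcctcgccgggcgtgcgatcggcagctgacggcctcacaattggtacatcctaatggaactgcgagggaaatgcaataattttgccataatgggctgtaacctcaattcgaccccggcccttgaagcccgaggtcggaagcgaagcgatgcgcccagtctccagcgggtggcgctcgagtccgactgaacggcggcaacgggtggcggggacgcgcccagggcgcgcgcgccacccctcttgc
Hoxa10, outer start: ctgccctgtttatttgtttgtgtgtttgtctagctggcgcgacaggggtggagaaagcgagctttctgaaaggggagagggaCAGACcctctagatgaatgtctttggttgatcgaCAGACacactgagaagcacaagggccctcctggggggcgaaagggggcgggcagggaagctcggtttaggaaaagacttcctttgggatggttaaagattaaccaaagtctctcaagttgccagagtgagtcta
Hoxa10, inner start: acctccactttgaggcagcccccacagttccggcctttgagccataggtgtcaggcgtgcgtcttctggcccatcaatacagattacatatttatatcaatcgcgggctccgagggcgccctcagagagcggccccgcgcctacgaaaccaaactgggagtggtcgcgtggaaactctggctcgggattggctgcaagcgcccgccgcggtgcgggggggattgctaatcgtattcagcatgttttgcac

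The outer Hoxa10 stretch held 2 copies of CAGAC, beginning 168 and 134 bases before the start, and the Hoxa5 and inner Hoxa10 stretches held 0. TGATNNAT was in none of the 3. Over 32851 upstream stretches of the same length, 42.2% held CAGAC and 7.68% held TGATNNAT, and over 24 such stretches of 22 HOX genes 7 and 4 did. These are matches of letters in a short window and not sites of binding. The array values do not separate transcripts of the 2 Hoxa10 starts.

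Hoxd8 had signals of 5.67 in the Tgfbr2/Smad4 cKO array, 6.30 in the Tgfbr2 cKO array and 6.47 in the wild-type array. Its difference from wild type, -0.80 on the log2 scale or 1.74-fold lower, was the most negative of the 37, but every signal was below the median and the gene did not pass the level filter. Hoxb2, which acts in the hindbrain, had signals of 8.99, 9.50 and 9.38 in the Tgfbr2/Smad4 cKO, Tgfbr2 cKO and wild-type arrays. Its difference from wild type was -0.38 on the log2 scale, under 1.5-fold.

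By the size rule, 1 of the 21 members that passed the level filter was at least 2-fold higher in the Tgfbr2/Smad4 cKO line than in wild type, against 1.22% of all genes that passed, and 0 were at least 2-fold lower, against 2.18%. At 1.5-fold, 2 of 21 were higher, Hoxc6 and Hoxa10, against 3.35% of all genes, and 1 was lower, Hoxa5, against 5.09%. Hoxa10 passed the filter through the Tgfbr2/Smad4 cKO array alone, and without it 1 of the 20 members at or above the median in all 3 arrays was higher. These genes are too few to read as more or fewer than the background. The median difference was 0 over the 21 members and 0 over all genes that passed, and 63.3% of all those genes differed at all, as did 13 of the 21. The members ran from -0.62 to 1.20.

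**Figure D2:**
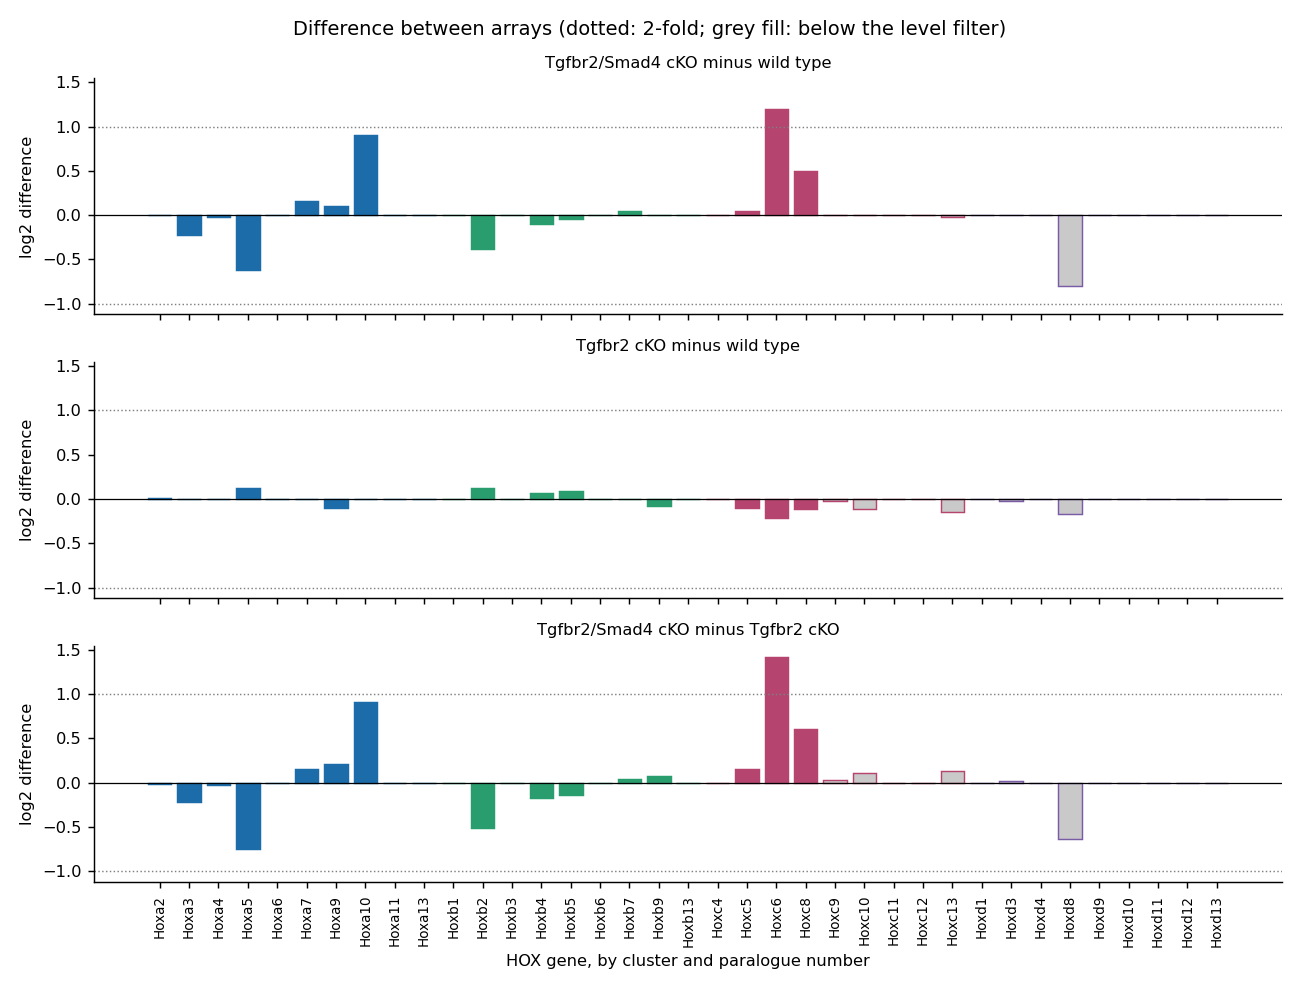
Log2 difference between arrays (vertical axis) for each HOX gene in cluster and paralogue order (horizontal axis), with a panel for each comparison, bars coloured by cluster and grey fill for genes below the level filter. The dotted lines mark 2-fold. Hoxc6 crosses the line in both comparisons of the Tgfbr2/Smad4 cKO line, at 1.20 and 1.42, and no bar reaches it between Tgfbr2 cKO and wild type. There, 0.0254% of all genes that passed the filter were at least 2-fold higher and 0.00847% lower.

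As counts without a test, lower members lay more on the 3′ side of the clusters and higher members more in the middle. Of the 14 genes of paralogue groups 1 to 5, 6 were lower in the Tgfbr2/Smad4 cKO line than in wild type, 1 was higher and 7 were equal. The 6 were Hoxa3, Hoxa4, Hoxa5, Hoxb2, Hoxb4 and Hoxb5, and the 1 was Hoxc5. Of the 7 genes of groups 6 to 8, 4 were higher, Hoxa7, Hoxb7, Hoxc6 and Hoxc8, 1 was lower, Hoxd8, and 2 were equal. Of the 16 genes of groups 9 to 13, 2 were higher, Hoxa9 and Hoxa10, 1 was lower, Hoxc13 by 0.02 on the log2 scale, and 13 were equal. These counts include members below the level filter, 12 of them in groups 9 to 13, and the shares over all named genes given above are their background. Most genes of groups 1 to 8 passed the filter, and of all genes that passed 31.1% were higher, 32.2% lower and 36.7% equal. The counts are too few to read as more or fewer than these shares. Several of the HOX differences were small, such as 0.04 for Hoxb7 and -0.03 for Hoxa4, and no replicate shows how far such values vary.

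Within HOXA the lower members, Hoxa3 to Hoxa5, lay 3′ of the higher ones, Hoxa7, Hoxa9 and Hoxa10, as single differences without a replicate. Of all genes that passed the filter, 26.1%, 56.5%, 33.3% and 41.8% differed by at least as much as Hoxa3, Hoxa4, Hoxa7 and Hoxa9. Hoxa3, a gene of thymus and parathyroid development, had 7.31 in the Tgfbr2/Smad4 cKO array against 7.54 in the wild-type array, and Hoxa4 had 9.28 against 9.31. Hoxa6 was equal at 8.15. Hoxa7 had 9.62 against 9.46, and Hoxa9, a gene of blood cell progenitors, 7.51 against 7.41. Within HOXB, Hoxb4, which promotes blood stem cell growth, had 8.47 in the Tgfbr2/Smad4 cKO array against 8.58 in wild type, Hoxb5 had 9.15 against 9.20 and Hoxb7 9.15 against 9.11.

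Paralogues of the same number differed in direction or size in some groups. Groups 1, 11 and 12 were equal in all arrays, both genes of group 7 were higher in the Tgfbr2/Smad4 cKO array than in wild type, and groups 3, 4 and 13 held lower or equal members. In group 5, Hoxa5 differed by -0.62 on the log2 scale, Hoxb5 by -0.05 and Hoxc5 by 0.05. In group 6, Hoxc6 differed by 1.20, while Hoxa6 and Hoxb6 were equal in all arrays. In group 8, Hoxc8 differed by 0.50 and Hoxd8 by -0.80. In group 10, Hoxa10 differed by 0.91, while Hoxc10 and Hoxd10 were equal in the Tgfbr2/Smad4 cKO and wild-type arrays.

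Between the Tgfbr2 cKO line, of carcinoma origin, and the wild-type line, no HOX gene differed by 1.5-fold. These lines differed in tissue of origin as well as in Tgfbr2. They also differed in Mki67 by -0.31, in the mesothelial gene Upk3b by -1.07, in Krt19 by 0.42 and in Lyz2 by 0.82. The parts of these in the HOX values cannot be told apart from that of genotype. Of 37 members, 5 were higher, 10 lower and 22 equal, which is 13.5%, 27.03% and 59.5%, against 18.2%, 15.0% and 66.8% of all named genes. The differences ran from -0.22 for Hoxc6 to 0.13 for Hoxb2. Of the 21 members that passed the level filter, 0 were higher by 1.5-fold and 0 lower, against 0.212% and 0.161% of all genes. By 2-fold the background was 0.0254% higher and 0.00847% lower, with 0 members. With shares this small, 0 of 21 cannot be read as fewer than the background. In this comparison 10 of the 21 differed at all, against 44.9% of all genes. All 6 HOXC genes that differed were lower in the Tgfbr2 cKO array, Hoxc5, Hoxc6, Hoxc8, Hoxc9, Hoxc10 and Hoxc13, and the other 3 HOXC genes were equal, where 15.0% of all named genes were lower and 18.2% higher. Hoxc9, Hoxc10 and Hoxc13 lay below the level filter in every array. The range of those 6 was -0.22 to -0.02 on the log2 scale. HOXD held 2 lower and 0 higher members, HOXA 1 lower and 2 higher, and HOXB 1 lower and 3 higher. By position, groups 6 to 8 held 3 lower and 0 higher, and groups 9 to 13 held 5 lower and 0 higher. The direction was therefore not particular to HOXC, and the genes are too few to read against the background. Hoxa5, Hoxb2, Hoxb4 and Hoxb5 were higher by 0.13, 0.13, 0.07 and 0.09, while the same genes were lower in the Tgfbr2/Smad4 cKO line than in wild type. Both comparisons use the same wild-type array, so a deviation of that array would enter both, with the same sign.

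The Tgfbr2/Smad4 cKO and Tgfbr2 cKO lines differed in tissue of origin as well as in Smad4. They also differed in Xist by 4.09, in Eif2s3y by -4.99, in Mki67 by -1.63 and in the 8 smooth muscle markers by a median of -1.145, and these cannot be told apart. Hoxc6, Hoxa10 and Hoxc8 were again on the high side and Hoxa5 on the low side, in a comparison that shares the Tgfbr2/Smad4 cKO array with the one against wild type. Of 37 members, 12 were higher in the Tgfbr2/Smad4 cKO array, 8 lower and 17 equal, which is 32.4%, 21.6% and 45.9%, against 24.6%, 23.5% and 51.8% of all named genes. Of the 21 that passed the filter 15 differed at all, against 63.9% of all genes. Hoxc6 was 1.42 higher on the log2 scale, or 2.68-fold, at rank 78 from the top of 11808 genes. It was the 1 member of 21 at least 2-fold higher, against 1.32% of all genes, with 0 of 21 at least 2-fold lower, against 2.25%. Hoxa10 and Hoxc8 were higher by 0.91 and 0.60, which made 3 of 21 at least 1.5-fold higher, against 3.4% of all genes. Without Hoxa10, which passed the filter through the Tgfbr2/Smad4 cKO array alone, it was 2 of the 20 members at or above the median in all 3 arrays, too few to read against the background. Hoxa5, at -0.75, was the 1 of 21 at least 1.5-fold lower, against 5.61% of all genes. Hoxb2 differed by -0.51, and Hoxd8, below the filter, by -0.63.

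**Figure D3:**
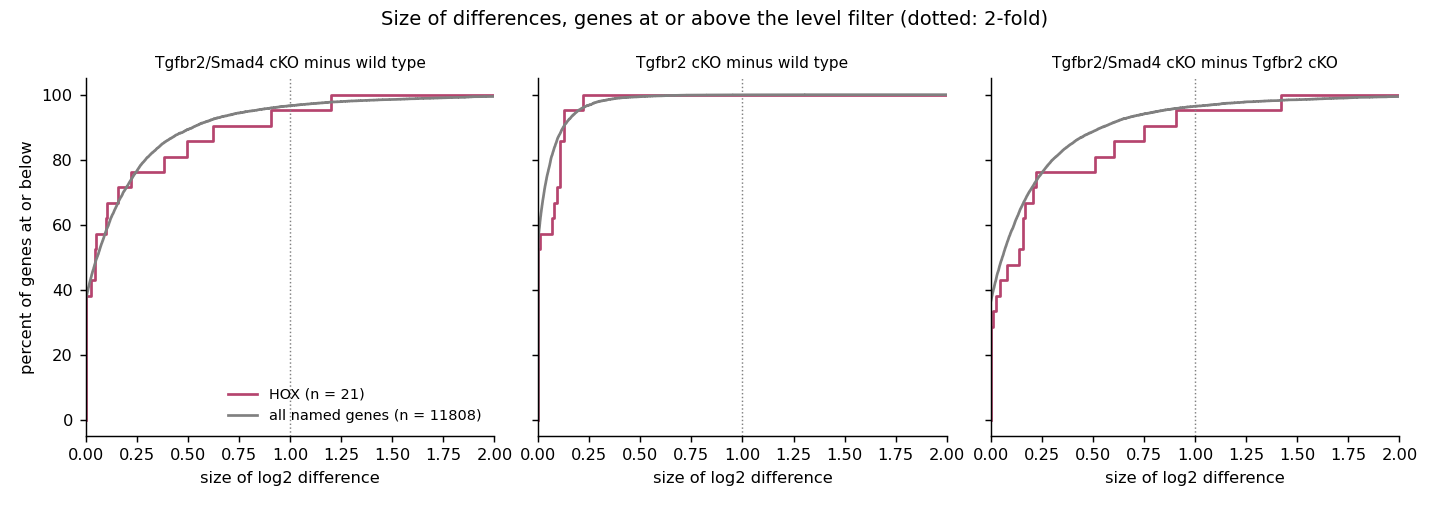
Percent of genes (vertical axis) whose log2 difference was at or below a given size (horizontal axis, sizes without sign), for the 21 HOX genes and all 11808 named genes at or above the level filter, with a panel for each comparison and a dotted line at 2-fold. In the middle panel all 21 HOX genes lie within 0.22, and 1 HOX gene of 21 lies past 2-fold in the first and last panels.

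MicroRNA genes of the miR-10 and miR-196 families lie inside the clusters. In mouse embryos miR-196 directs cleavage of the Hoxb8 transcript. Their mature 5p sequences, from RefSeq for GRCm38.p6, are shown with the seed, bases 2 to 8, in capitals, because the seeds group them into families.
mmu-miR-196a-5p: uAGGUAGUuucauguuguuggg
mmu-miR-196b-5p: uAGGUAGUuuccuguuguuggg
mmu-miR-10a-5p: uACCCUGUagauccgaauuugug
mmu-miR-10b-5p: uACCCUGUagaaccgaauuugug

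Both miR-196 sequences shared the seed AGGUAGU and both miR-10 sequences the seed ACCCUGU. The array probe sets read RNA from the gene and not the mature microRNA, so these values say nothing of mature levels. Mir196a-1, in HOXB between Hoxb13 and Hoxb9, had signals of 7.26 in the Tgfbr2/Smad4 cKO array, 6.45 in the Tgfbr2 cKO array and 6.70 in the wild-type array, a difference from wild type of 0.57 on the log2 scale. Mir196a-2 in HOXC, Mir196b in HOXA and Mir10b in HOXD were equal in all arrays at 4.94, 5.45 and 3.93, all below the median. Mir10a, in HOXB, had 4.93 in the Tgfbr2/Smad4 cKO array and 4.61 in each of the others. Mir615, which lies within Hoxc5, had 8.58 in the Tgfbr2/Smad4 cKO array and 8.41 in each of the others. The probe set annotated to both Hoxb8 and Hoxb7 had 8.88 in the Tgfbr2/Smad4 cKO array and 8.41 in each of the others, a difference of 0.47. Its signal cannot be given to either gene, and the probe set of Hoxb7 alone differed by 0.04.

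Long non-coding RNAs of the clusters were dim or equal. Hoxaas2 had 6.997 in each array. Hottip, transcribed from the 5′ end of HOXA, had 5.71 in the Tgfbr2/Smad4 cKO array and 5.63 in each of the others. Haglr and both probe sets of Hoxd3os1, in HOXD, were equal in all arrays and below the median. In all, 3 of the 10 cluster non-coding RNAs with a value passed the level filter.

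Of the protein-coding genes beside the clusters, 1 differed by 2-fold. Calcoco1, the next protein-coding gene beyond Hoxc13 in the RefSeq order, had signals of 10.32 in the Tgfbr2/Smad4 cKO array, 9.33 in the Tgfbr2 cKO array and 9.24 in the wild-type array, a difference from wild type of 1.09. Between it and Hoxc8, the genes from Hoxc13 to Hoxc9 lay below the median and differed by at most 0.02 in size. Smug1, a DNA repair gene next to Hoxc4, differed by 0.18. Of the 11 flanking genes that passed the filter, 4 were higher, 3 lower and 4 equal, with a median of 0, and Calcoco1 was the 1 at least 2-fold apart. Beside HOXA, Hibadh differed by -0.54 and Skap2 by 0.04. Beside HOXB, Cbx1 differed by -0.19. Beside HOXD, Lnpk differed by -0.37, and Evx2 and Mtx2 were equal in all arrays.

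HOX proteins bind DNA with TALE homeodomain partners of the PBX, MEIS and PREP families. All 10 TALE genes with a value passed the level filter, and 0 were 2-fold apart in any comparison. Between Tgfbr2/Smad4 cKO and wild type 3 were higher, 2 lower and 5 equal, with a median of 0. Of all genes that passed, 31.1% were higher, 32.2% lower and 36.7% equal, and 1.22% were at least 2-fold higher and 2.18% lower. The TALE genes are too few to read as more or fewer than these shares. Tgif1, which encodes a repressor that binds SMAD proteins, had signals of 10.15, 10.83 and 10.70 in the Tgfbr2/Smad4 cKO, Tgfbr2 cKO and wild-type arrays, a difference from wild type of -0.55. Pknox2 had 7.18, 7.68 and 7.47, a difference of -0.29. Meis1 and Meis2 differed by 0.08 and 0.18, and Pbx2 and Pbx3 were equal in all arrays.

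Among Polycomb genes, 8 of 29 were higher in the Tgfbr2/Smad4 cKO line than in wild type, 10 lower and 11 equal, with a median of 0. These counts lay near the shares of all genes that passed, 31.1% higher, 32.2% lower and 36.7% equal. At least 2-fold apart were 0, against 1.22% higher and 2.18% lower of all genes. Ezh2, the methyltransferase of the complex, had signals of 8.60 in the Tgfbr2/Smad4 cKO array, 9.29 in the Tgfbr2 cKO array and 9.51 in the wild-type array, a difference from wild type of -0.91. Proliferating cells express more Ezh2, and the proliferation marker Mki67 moved alongside it, with 7.70, 9.34 and 9.65 in the same arrays. The part of proliferation in the Ezh2 and HOX values was not tested. Rbbp4, a histone-binding subunit, differed by -0.35, and Eed, Jarid2 and Rnf2 were equal in all arrays.

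Of 15 Trithorax and demethylase genes, 5 were higher in the Tgfbr2/Smad4 cKO line than in wild type, 7 lower and 3 equal. Their median was 0. Of all genes that passed, 31.1% were higher, 32.2% lower and 36.7% equal, and 1.22% were at least 2-fold higher. Kdm6a, a demethylase that removes the Polycomb mark, was the 1 at least 2-fold higher, with signals of 8.08, 7.28 and 7.06 in the Tgfbr2/Smad4 cKO, Tgfbr2 cKO and wild-type arrays. Kdm6a lies on chromosome X and escapes X inactivation, and Xist was higher in the same array by 4.11, so its difference cannot be told apart from that of the sex-linked genes. Kmt2a, the methyltransferase that maintains HOX expression, differed by 0.08 and its partner Men1 by -0.08.

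Among retinoic acid genes, the one furthest from wild type was Aldh1a2, a retinaldehyde dehydrogenase that makes retinoic acid in embryonic mesenchyme. It had signals of 5.78 in the Tgfbr2/Smad4 cKO array, 7.46 in the Tgfbr2 cKO array and 8.19 in the wild-type array. Its difference from wild type was -2.41 on the log2 scale for Tgfbr2/Smad4 cKO and -0.73 for Tgfbr2 cKO. Aldh1a1, a related enzyme, had 11.64, 10.49 and 11.19 in the same order. The receptor gene Rarb, itself induced by retinoic acid, had 8.04, 9.29 and 8.66, a difference of -0.62 for Tgfbr2/Smad4 cKO and 0.63 for Tgfbr2 cKO. Rara and Crabp2 were equal in all arrays. Of the 14 retinoic acid genes that passed, 5 were higher in Tgfbr2/Smad4 cKO than in wild type, 5 lower and 4 equal. Their median was 0. Over all genes that passed, the shares were 31.1%, 32.2% and 36.7%.

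Aldh1a2 is also expressed in mesothelium. All 5 of the 6 mesothelial markers that passed the filter were lower in the Tgfbr2/Smad4 cKO line than in wild type. Of all genes that passed, 32.2% were lower and 31.1% higher. Msln passed through the wild-type array alone, at 7.07, so its being lower follows from the filter. Upk1b, at 6.21 in the Tgfbr2/Smad4 cKO array, passed through the other arrays. The summed signal of the 6 mesothelial markers on the log2 scale was 9.65 in the Tgfbr2/Smad4 cKO array. It was 10.73 in the Tgfbr2 cKO array and 11.13 in the wild-type array, and Lrrn4 was below the median in all 3. All 8 smooth muscle markers were lower as well, with summed signals of 15.38, 16.23 and 16.18 in that order. Of 12 fibroblast markers 10 were higher, with summed signals of 16.99, 16.88 and 16.84. The 2 lower ones were Thy1, which differed from wild type by -2.36, and S100a4, by -0.48. A sum follows its brightest genes and does not show the difference of Thy1. Summed epithelial markers, 6 of 9 of them below the filter, had 9.48, 10.25 and 10.12, and Krt19, which is in the epithelial and the mesothelial list, differed by -1.89 from wild type. The summed leukocyte markers had 9.22, 10.21 and 9.67. The part of these markers in the HOX differences was not tested.

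Of the genes upstream of HOX, 10 of 16 passed the filter. In the Tgfbr2/Smad4 cKO line 3 were higher than in wild type, 4 lower and 3 equal. Over all genes that passed, the shares were 31.1%, 32.2% and 36.7%. Hmga2, a chromatin protein of growing cells, had signals of 9.30 in the Tgfbr2/Smad4 cKO array, 10.34 in the Tgfbr2 cKO array and 10.35 in the wild-type array, a difference from wild type of -1.05. The caudal gene Cdx1 had 8.52 against 8.39 in wild type, Cdx2 and Cdx4 were below the median in all arrays, and Ctcf, which partitions the clusters, was equal at 9.26.

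**Figure D4:**
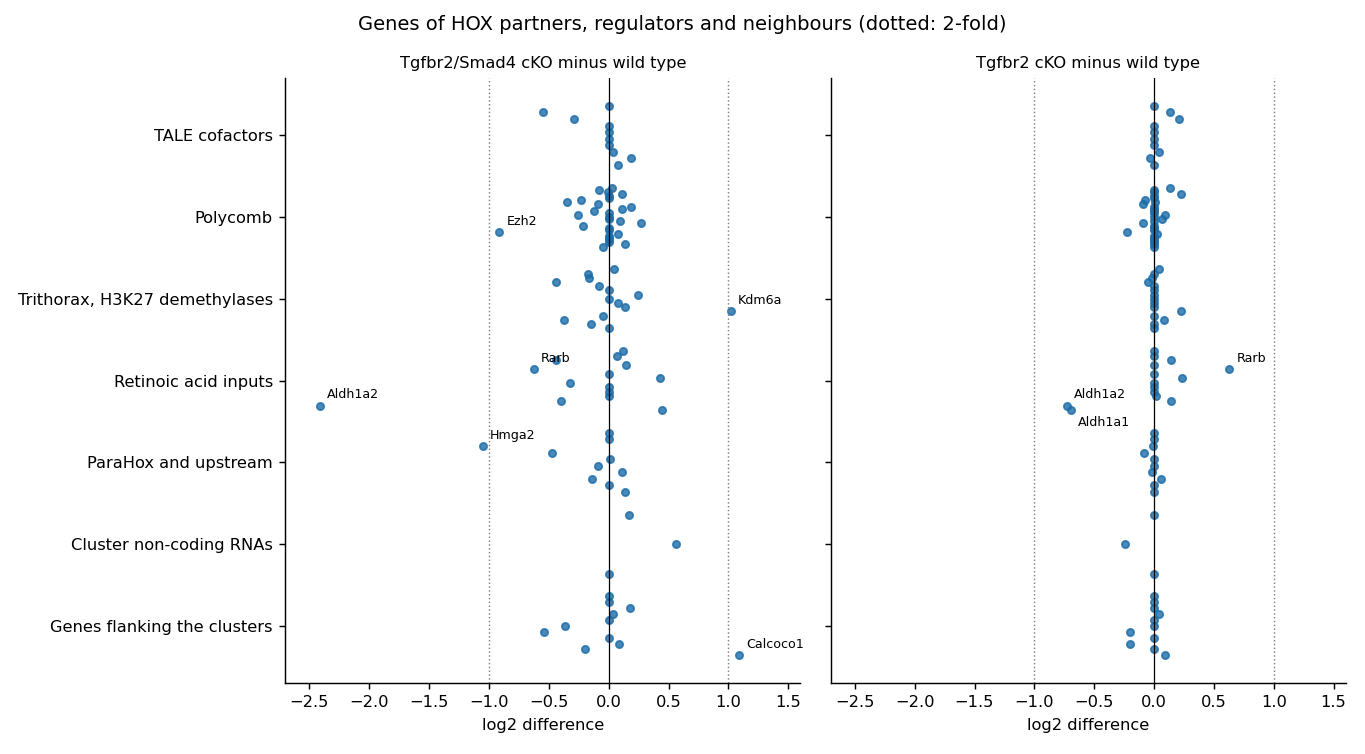
Log2 difference (horizontal axis) of each gene at or above the level filter in 7 lists of HOX partners, regulators and neighbours (rows), for Tgfbr2/Smad4 cKO minus wild type on the left and Tgfbr2 cKO minus wild type on the right, with dotted lines at 2-fold. Genes at least 0.6 from 0 are named. Aldh1a2 lies furthest from 0, at -2.41 and -0.73, while most points lie near 0.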

How the data were processed

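RNA of 3 fibroblast lines was measured on Affymetrix Mouse Gene 1.0 ST arrays, 1 per line, with values at transcript level, per the labels. The authors deposited 1 value per probe set for 35556 probe sets. The deposited values were read as log2 signals from their range of 2.82 to 15.6, since no label states the unit. The sources used here do not give the software, the normalization or the genome build. Values were used as deposited.

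Gene names came from the platform annotation, which gave 21789 probe sets 1 symbol and 1621 several, and did not list 12146. Symbols were updated through the gene identifier with RefSeq's GRCm38.p6 gene table for 21698. Where a gene had several such probe sets, their mean was used. All 37 HOX genes matched by gene identifier. Genes whose highest value was at or above the median, 6.63, were counted at 2-fold and 1.5-fold, with no test. Every HOX gene is named, those above the filter and at least 1.5-fold apart are described singly, and from other lists the members at least 2-fold apart or else the 2 that differed most, besides a few added as reference points after their values were seen. Members and lists were chosen with earlier results of these data known. Counting was tested on simulated data. Alternative normalizations used limma 3.58.1 in R 4.3.3, and all else Python 3.11.15 with pandas 2.3.3, numpy 2.4.6 and matplotlib 3.10.9.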

Additional observations from a re-analysis of the deposited data

How the results depend on the processing

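No paired analysis was possible because each line has 1 array. Counts by size and medians of the HOX genes were recomputed after median centring, quantile or cyclic loess normalization, with an offset of 32, without the level filter, with it raised to the 75th percentile, which left 10 HOX genes, and over the 8 HOX genes with 3 different values. None of these moved a count by over 1.5 times or a median by 0.1 on the log2 scale. Several could not have done so. The array medians differed by at most 0.00413, so median centring could move no median by 0.1. Hoxc6 has 3 different values and passed every filter, and 0 HOX genes of any level were 2-fold lower. The filters and the subset therefore left the 2-fold counts as they were. The choice of probe set per gene could not move any count or median, since each HOX gene has 1. The differences of Hoxa5, Hoxa10, Hoxc6 and Hoxc8 could move under the normalizations and the offset only. Under those the difference between Tgfbr2/Smad4 cKO and wild type ranged from 1.15 to 1.22 for Hoxc6, from -0.63 to -0.61 for Hoxa5, from 0.42 to 0.53 for Hoxc8 and from 0.72 to 0.93 for Hoxa10, which moved by over 0.1 with the offset. Hoxa10 and Hoxc8 did not pass the raised filter, and Hoxa10 has equal values in 2 arrays. The size rule did move counts. At 1.5-fold, 2 HOX genes were higher and 1 lower in Tgfbr2/Smad4 cKO than in wild type, and 3 higher and 1 lower than in Tgfbr2 cKO. These counts of higher genes include Hoxa10. At 3-fold, 0 were higher in either comparison. For Hoxd8 and the other HOX genes below the median, the deposited values do not show how far signal stood above background.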
